A study of Rattus norvegicus with 4 samples.

Results

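The transcripts described here are those of 10 immediate early genes, chosen by gene name: 4 of the FOS family (Fos, Fosb, Fosl1, Fosl2), 3 of the JUN family (Jun, Junb, Jund) and 3 of the EGR family (Egr1, Egr2, Egr3). Each name matched 1 row, giving 10 of the 33778 gene rows measured. RNA was sequenced from H9C2, a line derived from embryonic rat heart, in 2 control libraries and 2 libraries of cells kept for 48 h with PAGln at 100 µM. PAGln is phenylacetylglutamine, a conjugate of glutamine with phenylacetate made by gut bacteria. All libraries came from the same line, grown in DMEM with serum and antibiotics, and whether the libraries of a group were separate cultures is not stated. The treatment label speaks of triplicate sequencing and the series design of 2 repeats, and the 2 libraries per group are what was analysed here. The p-values given here therefore compare the groups with the variation among single libraries, and that variation may be technical.

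FOS and JUN proteins are basic leucine zipper factors that pair to form AP-1, which binds TPA response elements and related sites. JUN proteins can pair with each other, whereas FOS proteins need a JUN partner. EGR proteins are zinc finger factors that bind GC-rich sites and are held back by the corepressors NAB1 and NAB2. The genes Fos, Fosb, Egr1, Egr2 and Egr3 are induced within minutes of a stimulus, through MAP kinases acting on serum response factor, ternary complex factors and CREB, and their RNAs decay quickly. Jund is expressed more steadily. In heart muscle cells these genes are known as early responders to stretch and to hypertrophic agonists. RNA collected after 48 h with the metabolite therefore shows the level at that time and not an early peak.

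The values are FPKM, read numbers scaled by gene length and by library depth, made by the authors. Read numbers per gene were recovered from FPKM and gene length, and they sum to 13507110 to 14984712 reads per library. In bulk RNA of this kind, fewer cells expressing a gene and less RNA per cell cannot be told apart. Reads of mitochondrial genes made up 4.10% and 3.51% in controls 1 and 2, and 3.37% and 4.42% in PAGln 1 and 2. The labels call the cells cardiac myocytes, but 4 of the 13 cardiomyocyte marker rows reached a mean of 1 FPKM. Tnnt2, cardiac troponin T, had 157 FPKM, while the defining marker Myh6 had 0.16 FPKM. Of the myoblast markers 5 of 8 reached that mean, as did 4 of 6 fibroblast, 0 of 4 endothelial and 1 of 4 leukocyte marker rows.

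The comparison asks whether these transcripts differ in level after 48 h with the metabolite. None of the 8 members that could be tested passed the test of PAGln against control. A mean of 1 FPKM over the 4 libraries was required for testing, and 8 members passed it. Egr2 and Egr3 lay under it, Egr3 at 0.99 FPKM, and Fosb lay just over it at 1.09 FPKM. In limma on log2(FPKM + 1), fitted to 12334 genes, 0 members had a Benjamini-Hochberg adjusted p under 0.05. The background was 0 of all tested genes, or 0.0%, with 262 genes (2.12%) at an unadjusted p under 0.05. In that fit no member reached the unadjusted level either, and every tested member had an adjusted p of 0.9995. By voom on the recovered reads the count was again 0, and 135 genes had an unadjusted p under 0.05. Of the 8 tested members 2 had a log2 fold change above 0 and 6 below, where 50.6% of all tested genes lay above 0 and 49.4% below. Their median log2 fold change was -0.062, against 0.0021 over all tested genes. For 3 tested members (Fosb higher, Fosl1 and Jun lower) the PAGln values did not overlap the control values, where 23.1% of all tested genes did so. With 2 libraries against 2 an exact permutation test cannot give a two-sided p under 0.333.

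**Figure D1:**
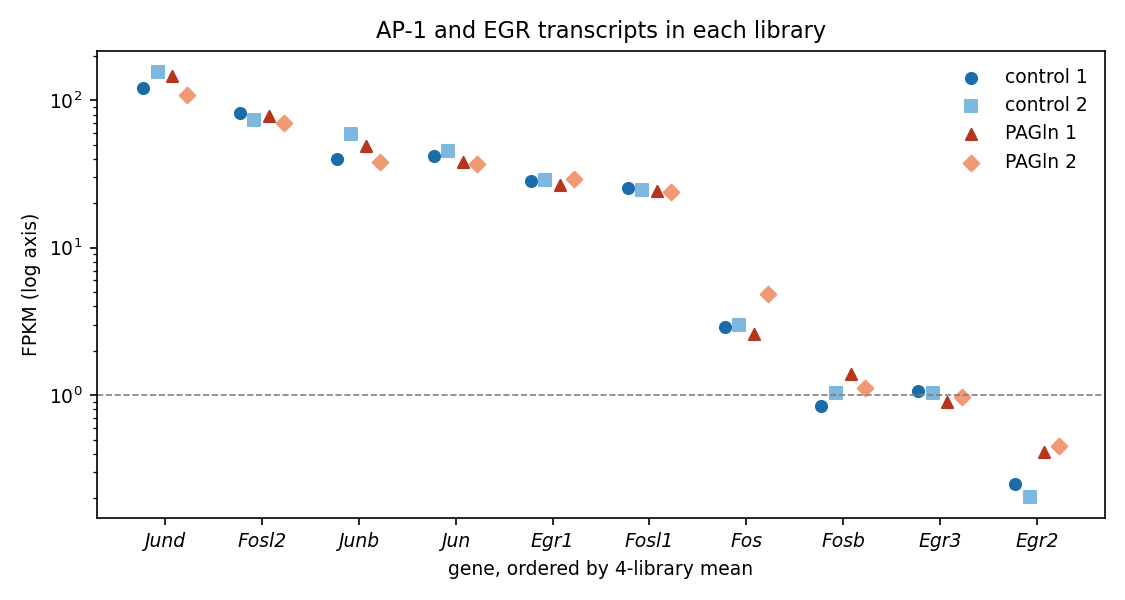
FPKM on a log axis of the 10 genes in each of the 4 libraries, ordered by their mean, with a dashed line at 1 FPKM, the mean required for testing. Jund is the highest in every library, Egr2 the lowest, and the 4 libraries of a gene lie within a 2.21-fold range.

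The JUN genes were among the more abundant transcripts of these cells. Jund, the most abundant of the 10 (chromosome 16 from 20485029 to 20486707), encodes the member that is expressed steadily in many cells. Coordinates of genes are those of the deposited tables, whose build is not given in the sources used here. Jund had 120 and 155 FPKM in controls 1 and 2 and 147 and 108 FPKM in PAGln libraries 1 and 2. Its 4-library mean exceeded that of 95.5% of the tested genes, that of Junb 84.8% and that of Jun 82.5%. Control 2 and PAGln 1 were thus high and control 1 and PAGln 2 low, so the groups overlapped. As group means these were 138 ± 24.9 FPKM without PAGln and 128 ± 27.6 FPKM with it (SD, n = 2 each). In limma Jund had a log2 fold change of -0.12 (SE 0.20, adjusted p = 0.9995). Its 95% confidence interval ran from -0.63 to 0.40, and the direction turned without control 2 (0.067) and without PAGln 2 (0.10).

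Junb, which forms AP-1 with FOS partners and can oppose JUN at some genes, followed the same order of libraries (chromosome 19 from 26092974 to 26094756). It stood at 39.8 and 58.7 FPKM in controls 1 and 2, and at 48.9 and 38.2 FPKM in PAGln 1 and 2. The spread within each group, 0.55 between the controls and 0.35 between the PAGln libraries on the log2 scale, was wider than the difference between the groups. That difference was -0.16 (SE 0.22, 95% confidence interval -0.73 to 0.41, limma adjusted p = 0.9995), and it turned to 0.12 without control 2 and 0.015 without PAGln 2.

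Jun, the main transactivating JUN protein and a substrate of JNK kinases, was lower in both PAGln libraries than in either control (chromosome 5 from 114011189 to 114014277). It measured 42.1 and 45.6 FPKM in the controls, against 38.4 and 37.2 FPKM with PAGln (replicates 1 and 2 in turn). The groups did not overlap and lay further apart than the libraries within either group, but the difference did not pass the test. Its log2 fold change of -0.21 (SE 0.10, 95% confidence interval -0.47 to 0.049) had the smallest unadjusted p of the members, 0.0923 in limma, and an adjusted p of 0.9995. This interval corresponds to between 0.722-fold and 1.03-fold of the control level of FPKM + 1. Leaving out 1 library at a time gave log2 fold changes of Jun from -0.27 to -0.15. In a fit with crossed replicate numbers as a block, chosen after seeing the data, the unadjusted p of Jun was 0.0248 in limma and the adjusted p 0.675.

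In the deposited tables the counted length of each JUN gene equals its span on the chromosome, so all 3 are listed without an intron, while the other 7 members are not. Junb and Jund were the 2 of 8 tested members with both control 2 and PAGln 1 above both other libraries. Of all tested genes 28.8% shared this pattern, so it did not set the members apart. Over the 434 tested protein-coding genes listed without an intron, the median of control 2 and PAGln 1 minus control 1 and PAGln 2 was 0.11 on the log2 scale. It was 0.0065 over the 10401 with introns, 0.45 for Junb, 0.40 for Jund and 0.078 for Jun. The pattern itself was held by 152 of those 434 genes and by 3151 of those 10401, so most genes of either kind lacked it. The mitochondrial share of reads went the opposite way in the same libraries, and its part in these values was not tested.

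The promoters of Junb and Jund are shown because these transcripts had the same order of libraries and the widest spread within groups among the JUN genes. They are from RefSeq, build GRCr8, 250 bases before to 50 after the gene start, printed 5′ to 3′ on the strand of the gene. Sequences were matched by symbol for 7 of the 10 members, and Fos, Jun and Egr3 were not matched. Junb lies at chr19:40080876-40081175 on the plus strand and Jund at chr16:18769722-18770021 on the minus strand. Capitals mark the half-site TGACG of the cyclic AMP response element on either strand, the CArG box bound by serum response factor, and the EGR site GCGTGGGCG or GCGGGGGCG.
Junb: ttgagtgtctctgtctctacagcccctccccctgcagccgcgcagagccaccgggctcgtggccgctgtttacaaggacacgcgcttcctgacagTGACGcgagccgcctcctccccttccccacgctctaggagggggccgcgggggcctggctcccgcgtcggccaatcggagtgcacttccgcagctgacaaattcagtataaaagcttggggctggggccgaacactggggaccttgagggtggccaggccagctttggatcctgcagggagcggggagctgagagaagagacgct
Jund: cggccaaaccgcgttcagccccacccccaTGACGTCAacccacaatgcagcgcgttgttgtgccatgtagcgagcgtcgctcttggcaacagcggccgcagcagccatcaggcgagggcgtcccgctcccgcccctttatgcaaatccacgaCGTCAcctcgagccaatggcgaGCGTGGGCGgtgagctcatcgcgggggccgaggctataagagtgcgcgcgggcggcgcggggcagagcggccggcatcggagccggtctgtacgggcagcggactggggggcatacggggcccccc
Jund held the full cyclic AMP response element TGACGTCA 221 bases before the start, which contains the half-site on both strands, a further half-site at 98 bases and an EGR site at 76 bases. Junb held 1 half-site, at 155 bases. The full element was present in 1.83% of the 33469 rat promoter windows, the half-site in 21.2% and the EGR site in 3.2%. No CArG box of these letters was present in either window. The AP-1 site TGACTCA, searched on both strands, was in none of the 7 member windows and in 4.63% of all. A match is a description of the letters and not a measured binding site.

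**Figure D2:**
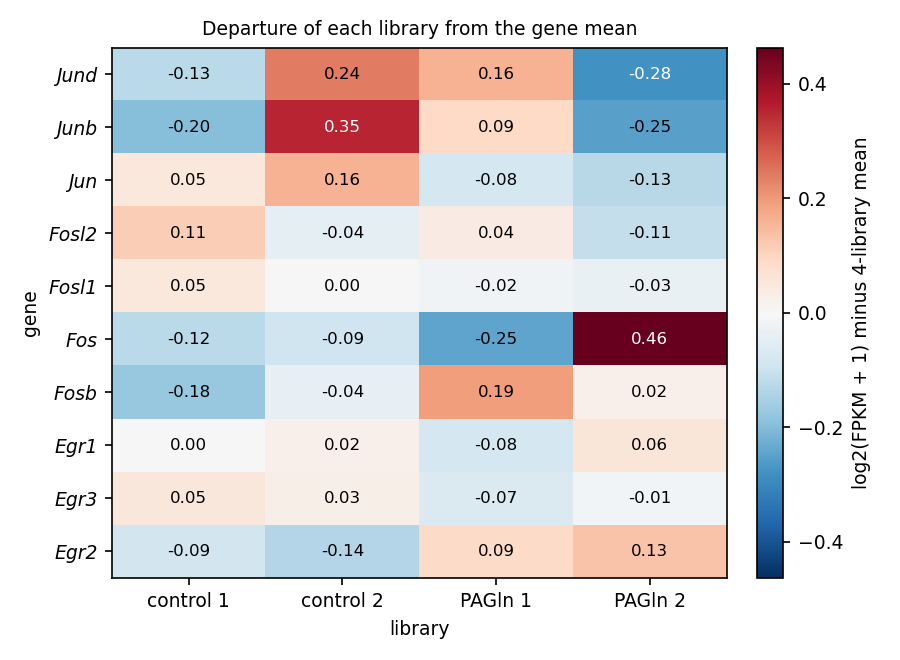
Departure of each library from the 4-library mean of log2(FPKM + 1) for the 10 genes, red above and blue below the mean. Junb and Jund are above their means in control 2 and PAGln 1, and Fos stands highest in PAGln 2 at 0.46.

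The FOS family was led by its 2 slowly induced members. Fosl2, which encodes FRA2, had 82.4 and 73.9 FPKM in controls 1 and 2 and 78.04 and 70.3 FPKM in PAGln libraries 1 and 2 (chromosome 6 from 25598936 to 25616995). Its counted length of 744 bases is the shortest of the 10, so its FPKM relative to other genes rests on that length. The log2 fold change of Fosl2 was -0.074 (SE 0.11, 95% confidence interval -0.37 to 0.22, limma adjusted p = 0.9995), and it was 0.0037 without control 1 and 0.00047 without PAGln 2.

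Fosl1, which encodes FRA1 and is itself a target of AP-1, was the steadiest member across the libraries (chromosome 1 from 220826560 to 220835066). It stood at 25.2 and 24.4 FPKM in controls 1 and 2, and at 24.1 and 23.8 FPKM in PAGln 1 and 2, a 1.06-fold range. Both PAGln libraries were below both controls, and the difference was smaller than its standard error. For Fosl1 limma gave a log2 fold change of -0.050 (SE 0.10, adjusted p = 0.9995), with a 95% confidence interval from -0.31 to 0.21.

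Fos, the prototype immediate early gene, was far less abundant (chromosome 6 from 109300433 to 109303299). It measured 2.92 and 3.004 FPKM in the controls, against 2.60 and 4.88 FPKM with PAGln (replicates 1 and 2 in turn), so 1 PAGln library was high and the other low. These rest on 69, 72, 56 and 106 reads in that order. The 95% Poisson interval of PAGln 2, from 3.999 to 5.91 FPKM, lay above those of the other 3 libraries, the highest of which ended at 3.78 FPKM. That of PAGln 1, from 1.96 to 3.38 FPKM, contained both control values. The log2 fold change of Fos was 0.22 (SE 0.27, 95% confidence interval -0.48 to 0.91, limma adjusted p = 0.9995), and it was 0.57 without PAGln 1 and -0.14 without PAGln 2. The interval allows between 0.718-fold and 1.88-fold of the control level of FPKM + 1.

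Fosb, which gives rise to the long-lived splice form ΔFosB in brain, was close to the limit for testing (chromosome 1 from 80214494 to 80221710). It had 0.844 and 1.03 FPKM in controls 1 and 2 and 1.38 and 1.12 FPKM in PAGln libraries 1 and 2, from 47, 58, 70 and 57 reads. Both PAGln libraries were above both controls. The Poisson interval of PAGln 1 (1.08 to 1.74 FPKM) lay above both control values but overlapped the intervals of controls 1 and 2, which ended at 1.12 and 1.33 FPKM. That of PAGln 2 (0.845 to 1.45 FPKM) contained the value of control 2. limma put the log2 fold change of Fosb at 0.21 (SE 0.24, 95% confidence interval -0.39 to 0.82, adjusted p = 0.9995). The log2 fold change of Fosb was 0.38 with a pseudocount of 0.1, 0.40 by voom and 0.13 without PAGln 1. Splice forms are not separated in these gene values.

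Summed over the family, FOS transcripts came to 107 ± 6.40 FPKM without PAGln and 103 ± 4.26 FPKM with it. The JUN sum was 231 ± 40.7 FPKM without PAGln and 209 ± 35.9 FPKM with it. Fosl2 made up from 70.2% to 74.0% of the FOS sum over the 4 libraries, and Jund from 58.9% to 62.8% of the JUN sum. The share of Fosl2 rests on its short counted length, and by recovered reads Fosl2 had 3243 and Fosl1 2322 in total. Leaving Fosl2 out, the FOS sum was 28.7 ± 0.372 FPKM without PAGln and 28.9 ± 1.24 FPKM with it. The groups of all these sums overlapped.

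**Figure D3:**
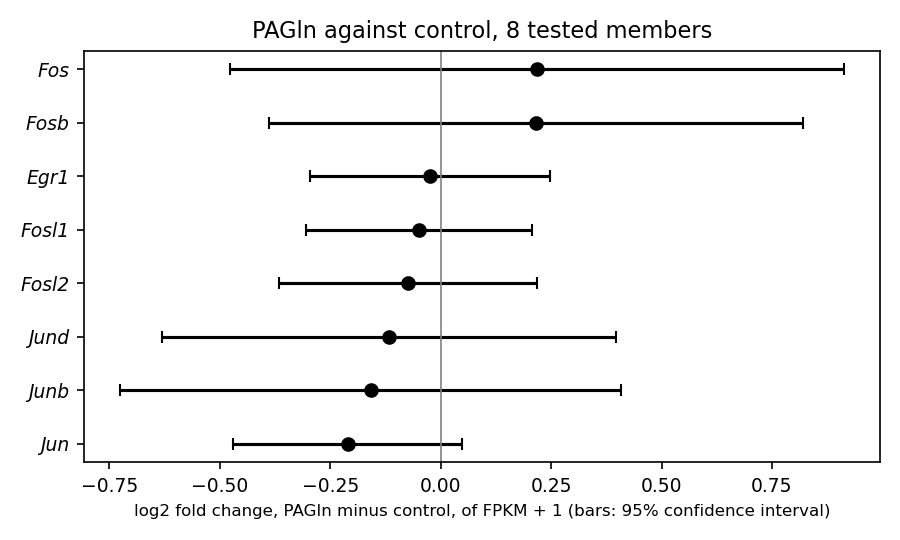
Log2 fold change of FPKM + 1, PAGln minus control, with 95% confidence intervals from limma for the 8 tested members. Every interval includes 0, and the estimates run from -0.21 for Jun to 0.22 for Fos.

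Egr1 was the abundant EGR gene, with 95.3% to 95.9% of the EGR sum in each library (chromosome 18 from 27657628 to 27661429). This growth factor and stretch responsive gene stood at 28.2 and 28.6 FPKM in controls 1 and 2, and at 26.6 and 29.3 FPKM in PAGln 1 and 2. The PAGln libraries lay on either side of both controls. In limma the log2 fold change of Egr1 was -0.025 (SE 0.11, adjusted p = 0.9995), with a 95% confidence interval from -0.30 to 0.25, and it was 0.043 without PAGln 1. That interval bounds the PAGln level of FPKM + 1 between 0.814-fold and 1.19-fold of control.

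Egr3 and Egr2 were near or under the limit of testing, so their values are given with no test. Egr3, known for its part in muscle spindle formation in mice, measured 1.06 and 1.03 FPKM in the controls, against 0.898 and 0.972 FPKM with PAGln (replicates 1 and 2 in turn). It lies on chromosome 15 from 51756736 to 51760722. Those values come from 43, 42, 33 and 36 reads. Both PAGln libraries were lower, but the Poisson interval of each library contained the values of the other 3. Egr2, a regulator of Schwann cell myelination in mice, had 0.249 and 0.205 FPKM in controls 1 and 2 and 0.411 and 0.453 FPKM in PAGln libraries 1 and 2 (chromosome 20 from 22454463 to 22459025). It had 12 and 10 reads in the controls and 18 and 20 with PAGln. The PAGln libraries were thus higher, with Poisson intervals (0.243 to 0.649 and 0.277 to 0.70 FPKM) that overlapped those of the controls (0.129 to 0.435 and 0.0983 to 0.377 FPKM). These intervals cover counting error only.

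**Figure D4:**
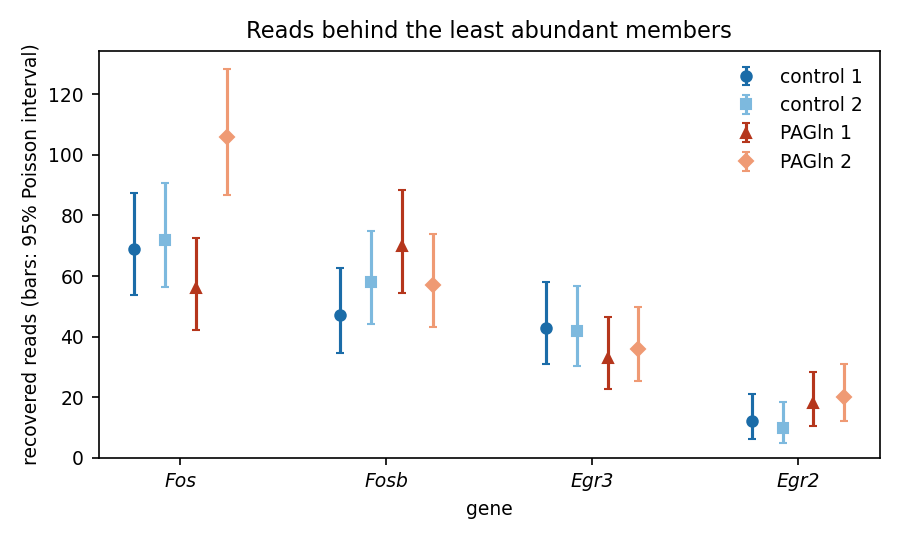
Reads recovered from the deposited FPKM for the 4 least abundant members in each library, with 95% Poisson intervals. Fos in PAGln 2 has 106 reads, with an interval from 86.8 to 128.2 reads that overlaps those of both controls. Only after scaling to FPKM does that interval lie above those of the other 3 libraries. The intervals of Egr2 and Egr3 overlap between all libraries.

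The promoters of Egr1 and Egr2 are shown because both hold CArG boxes, while their levels were 28.2 and 0.33 FPKM over the 4 libraries. Egr1 lies at chr18:26736828-26737127 on the plus strand and Egr2 at chr20:21054392-21054691 on the minus strand of GRCr8. Capitals have the same meaning as for Junb and Jund.
Egr1: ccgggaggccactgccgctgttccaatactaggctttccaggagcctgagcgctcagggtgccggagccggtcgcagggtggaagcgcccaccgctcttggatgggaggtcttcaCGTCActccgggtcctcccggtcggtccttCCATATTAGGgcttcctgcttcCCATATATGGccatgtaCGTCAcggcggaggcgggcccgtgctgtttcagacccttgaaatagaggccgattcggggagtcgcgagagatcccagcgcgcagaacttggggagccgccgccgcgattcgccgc
Egr2: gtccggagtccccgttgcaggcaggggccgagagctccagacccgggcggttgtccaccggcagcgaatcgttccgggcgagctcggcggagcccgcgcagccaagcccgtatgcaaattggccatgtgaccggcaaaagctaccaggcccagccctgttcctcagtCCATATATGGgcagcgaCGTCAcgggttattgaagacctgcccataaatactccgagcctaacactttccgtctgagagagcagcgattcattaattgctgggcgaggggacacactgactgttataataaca
Egr1 held CArG boxes 105 and 83 bases before the start and Egr2 held 1 at 83 bases. Each had a half-site of the cyclic AMP response element at 66 bases, and Egr1 had a second at 135 bases. These were the 2 of 7 member windows with a CArG box, which was found in 1.64% of all windows.

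In level order, the 10 genes ran from Jund through Fosl2, Junb, Jun, Egr1, Fosl1, Fos, Fosb and Egr3 to Egr2. The place of Fosl2 rests on its short counted length. Neighbours in that order did not overlap over the 4 libraries, with 2 exceptions. Junb and Jun overlapped, Junb being higher in 3 of 4 libraries, and so did Fosb and Egr3. Fos had the widest range of a tested member, 1.88-fold between its lowest and highest library. The genes closest to Fos in centred log2(FPKM + 1) over the 4 libraries, among 6850 with a mean of 10 FPKM or more, were RF00151, Rnf24 and Rgp1. Their root mean square differences from Fos were 0.077, 0.079 and 0.10 on the log2 scale. With 4 values per gene and 6850 genes searched, such a likeness is no sign of shared regulation, which was not tested.

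Other genes of the pathway were read from lists chosen with earlier results of these data known, and none of their members passed the test. Of the AP-1 partners of the bZIP class, 4 of 9 tested genes were above 0 in log2 fold change and 5 below, with a median of -0.038. Atf2, which pairs with JUN, had the smallest p, with 14.99 ± 1.82 FPKM without PAGln and 17.9 ± 3.19 FPKM with it. Its log2 fold change was 0.24 (adjusted p = 0.9995 in limma, SE 0.17). Atf4, the main effector of the integrated stress response, was the most abundant, with 151 ± 13.6 and 159 ± 10.2 FPKM and a log2 fold change of 0.079. For Maff, a small MAF protein gene, that value was -0.16. Atf3, a stress-induced partner of JUN, stood at 2.01 and 2.12 FPKM in controls 1 and 2, and at 1.55 and 1.76 FPKM in PAGln 1 and 2. In limma the log2 fold change of Atf3 was -0.21 (SE 0.20, adjusted p = 0.9995). The EGR corepressor gene Nab1 had 23.6 ± 1.37 FPKM without PAGln and 25.5 ± 0.147 FPKM with it, and Nab2, which EGR1 is known to induce, had 14.5 ± 2.003 and 13.5 ± 1.36 FPKM. The remaining EGR gene of that list, Egr4, was listed at 0 in all 4 libraries.

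Upstream of these genes, the MAP kinase cascade had 13 of 25 tested genes above 0 and 12 below, with a median of 0.00075. Mapk3, which encodes ERK1, was the most abundant with 181 ± 3.82 FPKM without PAGln and 186 ± 8.20 FPKM with it. Map2k6, a p38 activating kinase, had the smallest p of that list, with 2.45 ± 0.289 and 1.57 ± 0.212 FPKM (limma adjusted p = 0.9995). The log2 fold changes were 0.18 for both Map2k4 and Mapk8, genes of the JNK branch, and -0.19 for Hras. Among the factors that act on the CArG box and the cyclic AMP response element, 5 of 8 were above 0 and the median was 0.0066. Srf, serum response factor itself, had the smallest p, with 37.1 ± 3.92 FPKM without PAGln and 35.1 ± 4.05 FPKM with it. Mrtfa, a coactivator of SRF, was the most abundant, with 40.4 ± 3.82 and 38.6 ± 1.88 FPKM. The log2 fold changes of the ternary complex factor genes Elk4 and Elk1 were 0.085 and -0.073.

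Of the other immediate early genes 8 of 36 tested genes were above 0 and 28 below, with a median of -0.060, beside 49.4% below 0 over all tested genes. Their mean departure from the 4-library mean was 0.011 and 0.054 in controls 1 and 2, and 0.0062 and -0.071 in PAGln 1 and 2, so PAGln 2 was the low library. Of these 36 genes, 17 had control 2 and PAGln 1 above both other libraries, the order seen for Junb and Jund, and 5 had both below, where 28.8% and 28.1% of all tested genes did so. Both PAGln libraries lay above both controls for 4 of them and below for 4, where 11.5% and 11.6% of all tested genes did so. Plk3, a polo-like kinase, had the smallest p, with 9.61 ± 0.126 FPKM without PAGln and 7.63 ± 0.916 FPKM with it (limma adjusted p = 0.9995). The log2 fold changes next in order of p were -0.13 for Btg2, -0.29 for Nr4a2 and 0.17 for Trib1.

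Downstream, 6 of 14 tested targets of AP-1 and EGR were above 0 and 8 below, with a median of -0.023. Of the 21 genes on that list, 5 were at 0 in every library, namely Plau, Mmp3, Mmp10, Mmp13 and Ereg. Spp1, the osteopontin gene, was the most abundant with 377 ± 19.1 FPKM without PAGln and 404 ± 0.819 FPKM with it, and Pdgfb, a growth factor gene bound by EGR1, had 3.05 ± 0.491 and 2.32 ± 0.441 FPKM. The log2 fold changes of Tgfb1 and Timp1 were -0.20 and -0.097. Genes listed under the turnover of JUN and FOS proteins were all above 0 in log2 fold change, 5 of 5 with a median of 0.087. Whether each of them acts on JUN or FOS in these cells was not tested. Over all tested genes 50.6% were above 0. The mean departure of this list from the 4-library mean was 0.061 and -0.13 in controls 1 and 2. In PAGln 1 and 2 it was 0.085 and -0.013, so control 2 was the low library and control 1 lay above PAGln 2. Of these 5 genes, Cop1, a ubiquitin ligase for JUN, had 34.3 ± 1.76 FPKM without PAGln and 37.3 ± 1.97 FPKM with it. Fbxw7, Trib2 and Det1 had log2 fold changes of 0.090, 0.087 and 0.045. Heat shock genes, listed as a sign of stress, had 4 of 5 tested genes above 0 and a median of 0.049. Hspb1, a small heat shock protein gene, was the most abundant with 566 ± 50.002 FPKM without PAGln and 599 ± 106 FPKM with it. The log2 fold changes were 0.11 for Hsph1, 0.049 for Hspa8 and -1.04 (SE 0.55) for Hsp90aa1, which was low in PAGln 1.

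**Figure D5:**
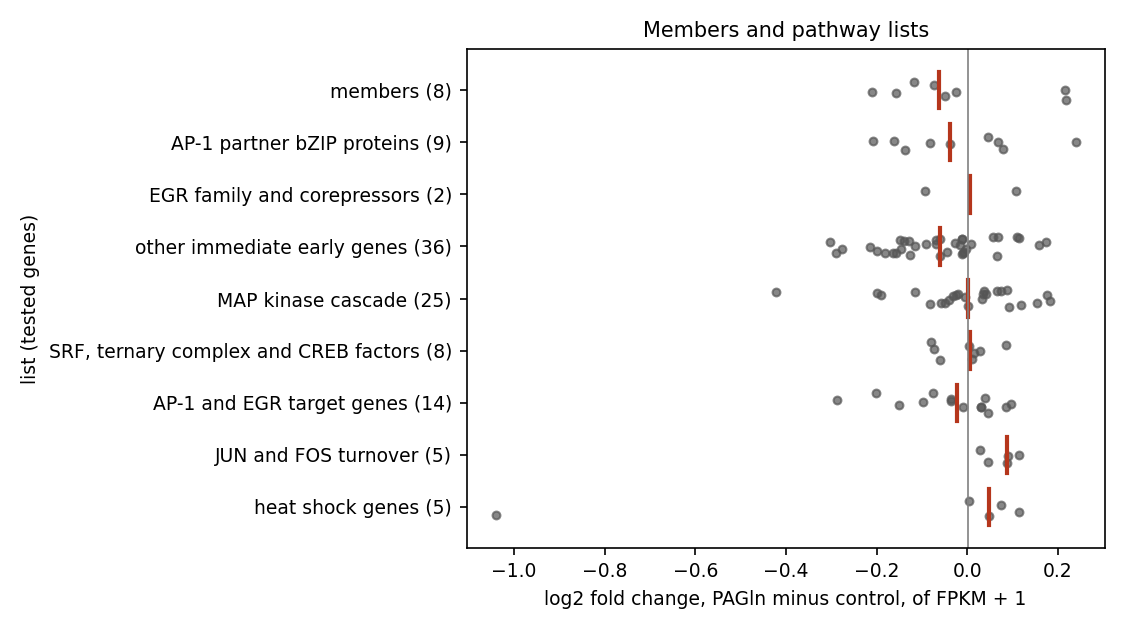
Log2 fold change of FPKM + 1, PAGln minus control, for each tested gene of the members and the pathway lists, with the median of each list in red and the median of all tested genes in grey. The medians run from -0.062 for the members to 0.087 for the turnover list.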

How the data were processed

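RNA of 4 libraries was analysed, 2 control and 2 PAGln, grouped by the treatment label with replicate numbers in accession order. Each library has its own deposited table, in which the authors give FPKM for every gene. Per the submitters' processing notes, Bowtie 0.12.2 and build hg38, a human build, were named, while the tables hold 32883 rat Ensembl identifiers and 895 others. The counting tool, its use of strand, its treatment of reads matching several loci and the build of the tables' coordinates were in each case not given in the sources used here. In each deposited file, multiplying FPKM by gene length gives whole multiples of a fixed step (100% of non-zero values within 0.01 of a read), which gave recovered reads on the assumption that the step is 1 read.

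The 12334 genes averaging at least 1 FPKM were fitted with limma 3.58.1 in R 4.3.3 on log2(FPKM + 1) by eBayes, using a variance trend. Tests were two-sided and adjusted by the Benjamini-Hochberg method over all of them at a threshold of 0.05. Differences are given as PAGln minus control on that log scale, which understates changes of low genes. Errors are SD over 2 libraries and limma's SE. The fit was tested on simulated data. Poisson intervals on recovered reads are exact at 95%. Alternatives were a pseudocount of 0.1, other filters, quantile normalization, voom on recovered reads with upper-quartile scaling, no variance trend, a replicate block and leaving out each library. The members and lists were chosen with earlier results of these data known. All members were named, and from each pathway list up to 4 tested genes with the smallest p and the most abundant one. Outside that rule, Egr4, the AP-1 and EGR targets at 0, the marker genes, Ccn1, Rhob, Dusp1, Nr4a1 and Myc were chosen after their values were seen. Lists were described by counts, with no set test. Promoter windows and older symbols are from RefSeq tables of GRCr8, whose coordinates are separate from those of the deposited tables.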

Additional observations from a re-analysis of the deposited data

How the results depend on the processing

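Over the 8 tested members, 86 of 94 values under the alternatives kept the direction of the log2 fold change. No member passed the threshold in any fit of all 4 libraries. The 94 values include many that could not turn. Changing the filter, adding either replicate block or dropping the variance trend leaves the estimate of a member unchanged, so these settings bear on the p-value only. The 8 that turned were all from leaving out 1 library: Fos without PAGln 2 (-0.14), Fosl2 without control 1 (0.0037) and without PAGln 2 (0.00047), Junb without control 2 (0.12) and without PAGln 2 (0.015), Jund without control 2 (0.067) and without PAGln 2 (0.10), and Egr1 without PAGln 1 (0.043). Over the 4 such settings the value ran from -0.14 to 0.57 for Fos, -0.15 to 0.0037 for Fosl2, -0.43 to 0.12 for Junb, -0.34 to 0.10 for Jund and -0.093 to 0.043 for Egr1. The cause was not tested. Under the filter of 5 FPKM, Fos and Fosb were not tested. The number of genes called over the whole table, 0, was 1 to 13 when 1 library was left out (2 and 1 without controls 1 and 2, and 5 and 13 without PAGln 1 and 2). Such fits assume that the single library left in a group varies as the other group does. The number of tested members whose groups did not overlap, 3, was 4 to 8 when 1 library was left out, since a lone library overlaps less often. It was 5 without control 1, 8 without PAGln 1 and 5 without PAGln 2. With no filter on low values it was 5, as Egr2 and Egr3 then enter, and under the filter of 5 FPKM it was 2. The share of all tested genes under these settings is not given here, so these counts have no background and are not read as a result about the members.

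With the replicate number as a block 7 genes were called, none of them a member. Libraries of the same number did not deviate together (correlation of their deviations -0.28 over 12334 genes). With 2 libraries per group the crossed pairing must give the same value with the sign reversed. The correlation therefore cannot decide whether libraries of the same number were handled together. A crossed replicate block, joining control 1 to PAGln 2 and control 2 to PAGln 1 and chosen after seeing the data, called 0 genes, with 899 at an unadjusted p under 0.05. Jun was among them, with an unadjusted limma p of 0.0248 and an adjusted p of 0.675. No other of the 8 tested members was under that level in any of the fits run. Fosb moved from 0.21 to 0.38 with a pseudocount of 0.1 and 0.40 by voom, and ran from 0.13 to 0.30 when 1 library was left out. Egr2 and Egr3 were left out of the tests by the filter on low values.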

Other observations

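Among immediate early genes outside the AP-1 and EGR families, the most abundant were the matricellular genes Ccn2, which averaged 474 FPKM, and Ccn1, which averaged 334 FPKM. Rhob, a small GTPase gene, had 141 FPKM and Dusp1, a MAP kinase phosphatase gene, 73.7 FPKM. Nr4a1, an orphan nuclear receptor gene induced by many of the stimuli that induce Fos, had 5.04 FPKM, and Myc had 4.70 FPKM. Hsp90aa1, a heat shock gene, was low in 1 library, PAGln 1, at 11.8 FPKM, against 41.5 FPKM in PAGln 2 and 49.4 and 44.8 FPKM in the controls.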
